A study of Rattus with 9 samples.

Results

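The genes described here are 40 interferon-response genes, that is, genes that interferons switch on and the sensors and transcription factors that control them. They were followed in thoracic dorsal root ganglia of rats after myocardial infarction (MI) or sham surgery. The members were listed by gene symbol, and they were chosen on the MI against sham differences of interferon genes in these same libraries, so those differences are given below as a description. Of the 40 members, 37 had a row among the 17378 genes of the deposited tables, and Ifi44l, Herc6 and Xaf1 had none. After a filter on low counts 35 members remained among 11711 tested genes. Zbp1 and Oas2 did not pass that filter.

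Poly-A RNA of the ganglia was sequenced 8 weeks after surgery. The MI group held 5 SD rats with coronary ligation, and the deposited tables call them CHF. The sham group held 4 SD rats with sham surgery. The labels number the rats within each group, 1 rat to a library, and they give no age or sex. No transgene or drug is named for either group.

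Interferons are secreted proteins that cells release when they sense viral or misplaced nucleic acid. Type I interferons act through the receptor chains Ifnar1 and Ifnar2 and the kinases Jak1 and Tyk2 on a transcription complex that holds Stat2 and Irf9, while interferon gamma signalling also draws on Irf1. The induced genes block viral entry, translation and replication, degrade RNA, trim and load peptides for MHC class I, and feed back on the signal through Usp18. In a sensory ganglion, neurons, satellite glia, Schwann cells, vessels and macrophages can all respond to interferon.

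Gene counts summed to between 6033134 and 6861355 per library in MI rats and between 5656582 and 6313128 in sham rats. A count of 3, taken as the detection floor, equalled 0.437 to 0.497 CPM (each gene's counts relative to the TMM-scaled library total) in MI libraries and 0.475 to 0.530 CPM in sham libraries. The RNA integrity number was 8.32 ± 0.217 in MI rats (SD, n = 5) and 8.33 ± 0.0957 in sham rats (SD, n = 4). A neuronal transcript that defines the tissue was abundant: Nefh, a neurofilament, averaged 1202 RPKM (reads per gene length and sequencing depth) over the 9 libraries. In bulk tissue, fewer cells of a type and less RNA per cell cannot be told apart.

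The levels of the members spanned a wide range on the length-scaled RPKM measure. Ifi27, a small hydrophobic membrane protein, led with a mean of 222.9 RPKM over the 9 libraries. Bst2 (tetherin, which holds budding virions at the cell surface) followed at 16.8 RPKM, and Stat2 at 14.4 RPKM. Mx2, Gbp2 and Irf9 had 12.4, 10.2 and 9.83 RPKM. At the low end stood Ifit1 with 0.676 RPKM, Oas2 with 0.341 RPKM and Zbp1 with 0.188 RPKM. Without Ifi27, the summed level of the members was 171 ± 16.9 RPKM in MI rats (SD, n = 5) and 146 ± 8.85 RPKM in sham rats (SD, n = 4). MI rats ranged from 157 to 199.6 RPKM and sham rats from 139 to 159 RPKM, so the ranges overlapped at MI 3, the lowest MI library, and Sham 2, the highest sham library.

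Most members were higher in MI, by small amounts, and none passed the test over all genes. The log2 fold change of MI over sham was above 0 in 32 of 35 tested members, against 50.8% of all tested genes. Its median was 0.20 over the members and 0.00 over all tested genes. The 3 lower members were Psmb9 (log2 -0.06), Oasl (log2 -0.03) and Ifih1 (log2 -0.02). With the edgeR likelihood-ratio test and Benjamini-Hochberg adjustment over all tested genes, 0 members had an adjusted p under 0.05, where 0.0171% of all tested genes were higher and 0% lower. The edgeR quasi-likelihood test also called 0 members and 0% of all tested genes. At an unadjusted p under 0.05 the likelihood-ratio test picked 6 members, all higher in MI (Gbp2, Usp18, Irf7, Bst2, Irgm and Mx2), where 2.37% of all tested genes were higher and 2.27% lower. The quasi-likelihood test picked 5 members at that level, against 5.14% of all tested genes. All 5 MI libraries stood above all 4 sham libraries in 3 members, Gbp2, Bst2 and Irgm, against 0.837% of all tested genes. In 0 members did all MI libraries stand below all sham libraries, against 0.905% of all tested genes. Since the choice of members used this contrast, nothing is read from these shares.

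**Figure D1:**
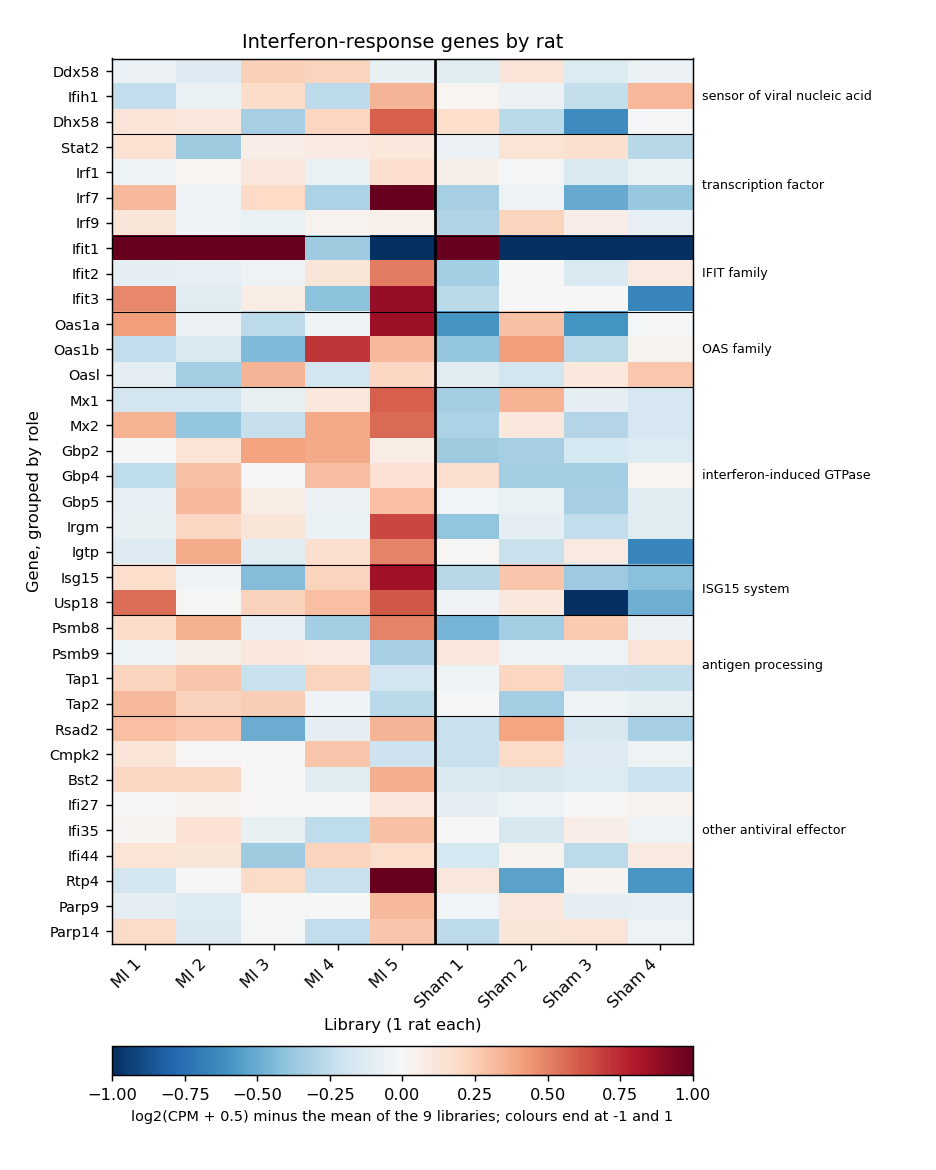
Level of each of the 35 tested members in each library, as log2(CPM + 0.5) minus the gene's mean over the 9 libraries, with the 5 MI rats left of the black line and the 4 sham rats right of it. Red is above and blue below the mean, and the MI 5 column holds the highest level of 20 members.

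The interferon-induced GTPases, which attack viral capsids or the membranes around intracellular microbes, were higher in MI in 7 of 7 tested members, with a median log2 fold change of 0.34 and a range of 0.13 to 0.46. Gbp2, a guanylate-binding protein, had 39.8, 43.7, 52.6, 51.8 and 41.8 CPM in MI 1 to MI 5, against 31.0, 31.5, 35.1 and 36.2 CPM in Sham 1 to Sham 4. The lowest MI rat lay above the highest sham rat. Its means were 45.9 ± 5.90 CPM in MI rats (SD, n = 5) and 33.4 ± 2.58 CPM in sham rats (SD, n = 4), a log2 fold change of 0.46 (SE 0.10). The adjusted p was 0.0612 by edgeR's likelihood-ratio test and 0.920 by its quasi-likelihood test, and over 22 other settings it ranged from 3.05e-04 to 0.920. It was under 0.05 without MI 1 (0.00352) and without MI 5 (0.0159). Gbp2 was the member closest to the threshold.

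Irgm, an immunity-related GTPase that acts on vacuoles and autophagy, had 6.12, 7.56, 7.07, 6.16 and 10.6 CPM in MI 1 to MI 5, against 4.81, 6.01, 5.37 and 5.89 CPM in Sham 1 to Sham 4. The gap between the groups was narrow, with MI 1 just above Sham 2, and the log2 fold change was 0.44 (SE 0.17, adjusted p = 0.9996, edgeR likelihood-ratio test), or 0.28 without MI 5. Mx2, a dynamin-like GTPase, had 65.0, 38.9, 43.5, 66.4 and 75.7 CPM in MI 1 to MI 5, against 40.8, 54.9, 41.6 and 45.2 CPM in Sham 1 to Sham 4. MI 2 and MI 3 lay within or below the sham range and the other 3 MI rats lay above it, with a log2 fold change of 0.34 (SE 0.23). Igtp, another immunity-related GTPase, had 9.17, 13.1, 9.27, 11.3 and 14.4 CPM in MI 1 to MI 5, against 10.2, 8.54, 10.8 and 6.21 CPM in Sham 1 to Sham 4, and the groups overlapped. Gbp5, which in human and mouse cells promotes inflammasome assembly, had 10.8, 14.5, 12.1, 10.99 and 14.2 CPM in MI 1 to MI 5, against 11.2, 10.9, 9.01 and 10.5 CPM in Sham 1 to Sham 4. Sham 1 and Sham 2 lay above the lowest MI rat, so the groups overlapped. Mx1, a nuclear relative of Mx2 in rodents, ranged from 14.5 to 25.4 CPM in MI rats and from 13 to 21.2 CPM in sham rats (log2 0.13). Gbp4 ranged from 3.22 to 5.00 CPM in MI rats and from 3.00 to 4.45 CPM in sham rats (log2 0.25). Members of each GTPase family are related genes and may share reads, which was not measured here, so their individual counts are uncertain.

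Among the transcription factors, 4 of 4 were higher in MI, and the median log2 fold change was 0.06. Irf7, the factor that amplifies type I interferon production, had 17.2, 13.3, 15.7, 10.8 and 29.6 CPM in MI 1 to MI 5, against 10.7, 13.1, 9.48 and 10.4 CPM in Sham 1 to Sham 4. MI 5 stood far above every other rat and MI 4 lay inside the sham range. The means were 17.3 ± 7.29 CPM in MI rats (SD, n = 5) and 10.9 ± 1.56 CPM in sham rats (SD, n = 4). The log2 fold change was 0.67 (SE 0.28, adjusted p = 0.771, edgeR likelihood-ratio test) and 0.39 without MI 5.

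Stat2, a part of the type I transcription complex, was near equal in the groups. It had 90.1, 63.2, 85.0, 86.1 and 87.4 CPM in MI 1 to MI 5, against 77.9, 89.2, 91.0 and 66.9 CPM in Sham 1 to Sham 4. Its log2 fold change was 0.02 (SE 0.14), and the sign turned in several settings. Irf9 had a log2 of 0.03 and Irf1 of 0.09, each with overlapping groups. Irf9 ranged from 24.7 to 28.2 CPM in MI rats and from 20.8 to 30.2 CPM in sham rats. Irf1 ranged from 15.2 to 17.9 CPM in MI rats and from 14.2 to 16.6 CPM in sham rats. Stat2 and Irf9 bind DNA together in the type I complex, and Irf1 serves interferon gamma signalling.

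The ISG15 system attaches and removes a ubiquitin-like tag. Usp18, the protease that removes Isg15 and also restrains the type I receptor, had 6.44, 4.27, 5.03, 5.33 and 6.75 CPM in MI 1 to MI 5, against 4.10, 4.59, 1.42 and 2.87 CPM in Sham 1 to Sham 4. Only Sham 2 reached above the lowest MI rat. The means were 5.56 ± 1.02 CPM in MI rats (SD, n = 5) and 3.24 ± 1.41 CPM in sham rats (SD, n = 4), a log2 fold change of 0.78 (SE 0.32, adjusted p = 0.691, edgeR likelihood-ratio test). These levels rest on 9 to 46 counts per library. Isg15, the tag itself, had 4.83, 4.11, 2.99, 5.00 and 7.92 CPM in MI 1 to MI 5, against 3.39, 5.22, 3.16 and 3.03 CPM in Sham 1 to Sham 4. MI 3 was the lowest of all 9 rats and MI 5 the highest, and the log2 fold change of 0.43 (SE 0.28) became 0.19 without MI 5.

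**Figure D2:**
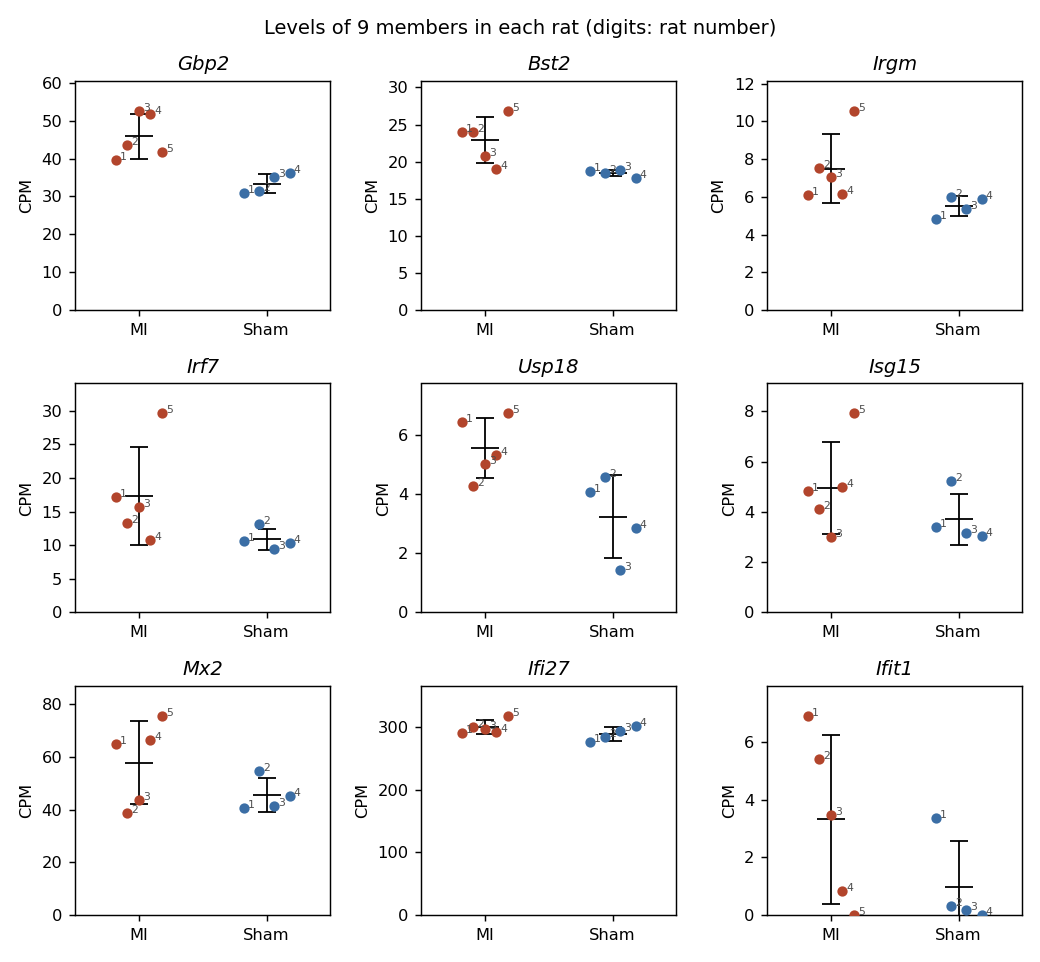
CPM of 9 members in each rat, MI left and sham right, with the mean and SD of each group as black bars and the rat number beside each point. Gbp2, Bst2 and Irgm have no overlap between groups, MI 5 is far above the rest in Irf7, and Ifit1 is at or near 0 in MI 5 and in 3 sham rats.

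The IFIT proteins bind viral RNA ends and hold back translation. In MI 3 of 3 were higher, with a median log2 fold change of 0.51. Ifit1 had 43, 33, 22, 5 and 0 counts in MI 1 to MI 5, against 19, 2, 1 and 0 counts in Sham 1 to Sham 4. In CPM that was 3.33 ± 2.94 in MI rats (SD, n = 5) and 0.965 ± 1.62 in sham rats (SD, n = 4). Its log2 fold change of 1.78 (SE 1.17) was the highest of all 11711 tested genes. Yet the groups overlapped, both held a library with no count, and Ifit1 failed the filter without MI 1, MI 2 or MI 3. The choice of members used this contrast, so nothing is read from that rank. Without Sham 1 the log2 fold change was 4.23, and the adjusted p was 0.263 (edgeR likelihood-ratio test). A library at 0 allows up to 0.437 CPM in MI 5 and 0.475 CPM in Sham 4.

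Ifit1 and its neighbours were high in different rats. Ifit3 had 7.24, 4.60, 5.34, 3.66 and 9.68 CPM in MI 1 to MI 5, against 4.10, 5.06, 5.06 and 3.03 CPM in Sham 1 to Sham 4. Ifit2 had 18.5, 18.6, 19.0, 21.5 and 28.3 CPM in MI 1 to MI 5, against 15.5, 19.6, 17.7 and 21.0 CPM in Sham 1 to Sham 4. Both were highest in MI 5, the MI library in which Ifit1 had no count, and both overlapped between groups. Their log2 fold changes were 0.51 (SE 0.30) for Ifit3 and 0.20 (SE 0.15) for Ifit2, and without MI 5 they were 0.27 for Ifit3 and 0.07 for Ifit2. In the RefSeq annotation Ifit2 and Ifit3 have 0 protein-coding genes between them and Ifit3 and Ifit1 have 1. The 3 related genes may share reads, which was not measured here, so the split of counts among them is uncertain.

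The OAS enzymes make the oligoadenylates that activate RNase L. Of 3 tested, 2 were higher in MI, and the median log2 fold change was 0.13. Oas1a had 6.598, 4.60, 3.93, 4.66 and 9.09 CPM in MI 1 to MI 5, against 3.03, 6.01, 3.00 and 4.78 CPM in Sham 1 to Sham 4. Sham 2 exceeded 3 of the MI rats, and the log2 fold change was 0.46 (SE 0.31), or 0.23 without MI 5. Oas1b, which in mouse carries resistance to flaviviruses, ranged from 2.04 to 5.16 CPM in MI rats and from 2.14 to 4.11 CPM in sham rats (log2 0.13). Oasl, a relative that binds RNA, ranged from 2.63 to 4.555 CPM in MI rats and from 3.00 to 4.30 CPM in sham rats (log2 -0.03). The untested Oas2 had 10, 5, 5, 13 and 23 counts in MI 1 to MI 5, against 5, 4, 1 and 7 counts in Sham 1 to Sham 4, again with MI 5 highest.

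Of 3 tested sensors of viral nucleic acid, 2 were higher in MI, and the median log2 fold change was 0.09. Ifih1 (MDA5, a sensor of long double-stranded RNA) had 14.0, 15.9, 19.0, 13.8 and 21.3 CPM in MI 1 to MI 5, against 16.9, 15.97, 14.1 and 21.2 CPM in Sham 1 to Sham 4. The ranges nearly coincided (log2 -0.02, SE 0.17). Ddx58 (RIG-I, which senses RNA with a triphosphate end) ranged from 16.1 to 20.9 CPM in MI rats and from 15.96 to 19.3 CPM in sham rats (log2 0.09). Dhx58 (LGP2, the regulator of both) ranged from 3.61 to 7.33 CPM in MI rats and from 2.845 to 5.345 CPM in sham rats (log2 0.37, SE 0.24), with MI 5 highest, and the log2 was 0.23 without MI 5. Zbp1, a sensor of left-handed nucleic acid, had only 4, 3, 4, 4 and 3 counts in MI 1 to MI 5, against 6, 1, 2 and 2 counts in Sham 1 to Sham 4, too few for a test.

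Of the antigen-processing members, 3 of 4 were higher in MI, and the median log2 fold change was 0.19. Tap2, a chain of the peptide transporter into the endoplasmic reticulum, had 25.3, 23.7, 23.9, 19.7 and 16.6 CPM in MI 1 to MI 5, against 19.8, 15.7, 19.4 and 19.1 CPM in Sham 1 to Sham 4. Here MI 5 was the lowest MI rat, and the log2 fold change of 0.24 (SE 0.14) was 0.32 without it. Psmb8, a catalytic subunit of the immunoproteasome, had 14.8, 16.8, 12.3, 10.2 and 18.5 CPM in MI 1 to MI 5, against 9.26, 10.1, 15.6 and 12.4 CPM in Sham 1 to Sham 4. The groups overlapped and the log2 fold change was 0.29 (SE 0.22), or 0.18 without MI 5. Tap1, the partner chain of Tap2, ranged from 12.7 to 18.2 CPM in MI rats and from 12.6 to 17.4 CPM in sham rats, with a log2 of 0.15. Psmb9, another immunoproteasome subunit, ranged from 6.01 to 8.325 CPM in MI rats and from 7.43 to 8.44 CPM in sham rats, with a log2 of -0.06. These 4 genes lie next to each other in RefSeq, with 0 protein-coding genes between each neighbouring pair.

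The remaining effectors stood higher in MI in 9 of 9 tested members (median log2 0.09). Bst2 had 24.0, 24.0, 20.7, 19.0 and 26.8 CPM in MI 1 to MI 5, against 18.7, 18.5, 18.8 and 17.8 CPM in Sham 1 to Sham 4. Every MI rat stood above every sham rat, and MI 4, the lowest, was close to the top of the sham range. The means were 22.9 ± 3.08 CPM in MI rats (SD, n = 5) and 18.5 ± 0.434 CPM in sham rats (SD, n = 4), a log2 fold change of 0.31 (SE 0.10, adjusted p = 0.802, edgeR likelihood-ratio test). Rtp4, a chaperone of receptors with antiviral activity in mouse, had 4.99, 5.75, 6.597, 4.83 and 13.5 CPM in MI 1 to MI 5, against 6.24, 3.80, 5.85 and 3.66 CPM in Sham 1 to Sham 4. Apart from MI 5 the groups covered much the same range, and the log2 fold change of 0.55 (SE 0.34) became 0.19 without MI 5. Ifi27, the most abundant member, had 290.5, 300.8, 297, 293 and 318 CPM in MI 1 to MI 5, against 277, 284, 294 and 302 CPM in Sham 1 to Sham 4. Its log2 fold change was 0.05 (SE 0.04). It was the member with the smallest SE.

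The other 6 tested effectors overlapped between groups. Rsad2 (viperin, which makes a chain-terminating nucleotide) ranged from 11.3 to 20.5 CPM in MI rats and from 12.7 to 21.35 CPM in sham rats (log2 0.15). Its neighbour Cmpk2, a nucleotide kinase, ranged from 28.75 to 40.5 CPM in MI rats and from 28.5 to 38.1 CPM in sham rats (log2 0.09). Ifi44 ranged from 33.1 to 49.6 CPM in MI rats and from 35.4 to 45.2 CPM in sham rats (log2 0.14). These ranges covered much the same span in MI and sham rats. Ifi35 ranged from 7.99 to 11.9 CPM in MI rats and from 8.54 to 10.1 CPM in sham rats (log2 0.08). Parp9, an ADP-ribosyltransferase, ranged from 29.2 to 40.3 CPM in MI rats and from 30.2 to 34.8 CPM in sham rats (log2 0.05). Parp14, its relative, ranged from 32.5 to 46.8 CPM in MI rats and from 32.1 to 42.2 CPM in sham rats (log2 0.03). In Ifi35, Parp9 and Parp14 the highest rat was MI 5, and the lowest MI rat lay near or below the lowest sham rat.

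**Figure D3:**
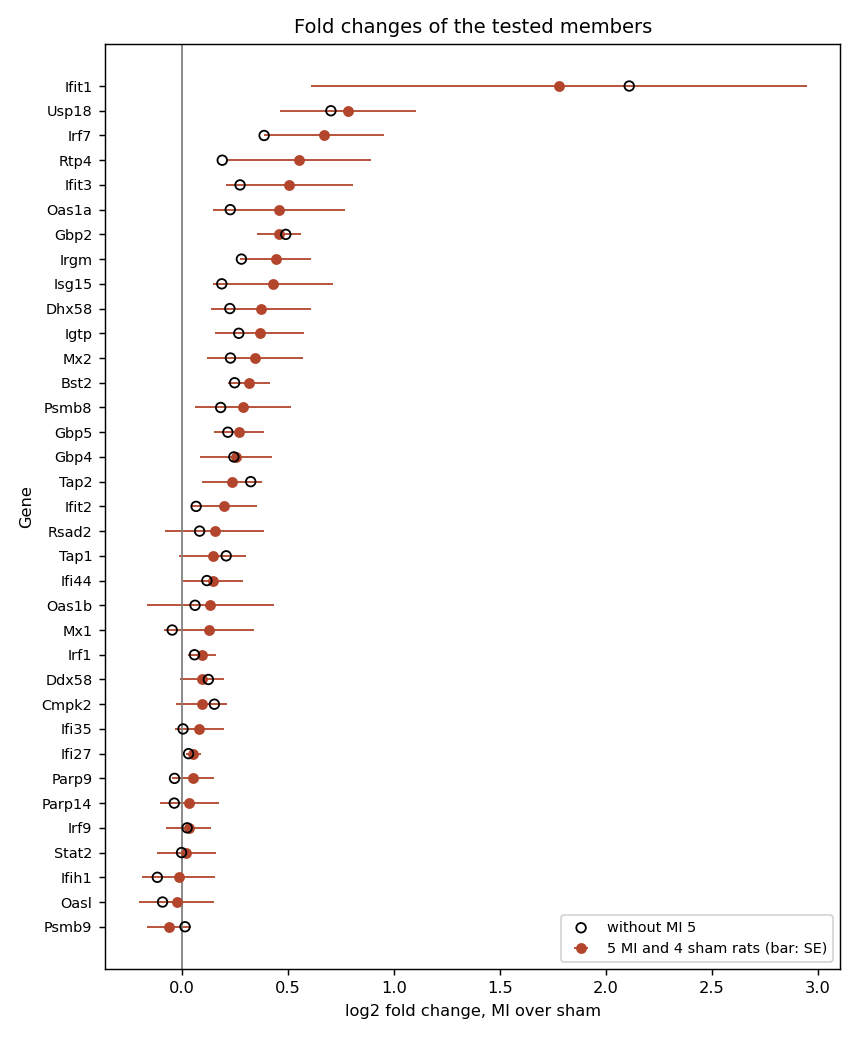
The log2 fold change, MI over sham, of each tested member in all 9 libraries (filled circles, bars give the SE of the difference in log2 CPM) and without MI 5 (open circles). With all libraries 32 of 35 circles lie right of 0, and without MI 5 the number is 29.

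The rat MI 5 held the highest level in 20 of 35 tested members, against 12.8% of all tested genes. Some other gene lists shared this. MI 5 was highest in 6 of 9 tested negative regulators of interferon signalling and in 18 of 50 further interferon-induced genes. It was also highest in 6 of 13 macrophage markers. The receptor and signalling genes did not share it, with 3 of 25, or 12%. The other libraries held the highest level of 2 members each in MI 1 and MI 2, 3 in MI 3, 4 in MI 4, 0 in Sham 1, 2 in Sham 2, and 1 each in Sham 3 and Sham 4. Without MI 5, 29 of 35 members were higher in MI, against 50.3% of 11641 tested genes, with a median log2 of 0.18. The choice of members used the MI against sham differences in these libraries. Nothing is therefore read from this share or from that of members highest in MI 5. Mx1, Parp9, Parp14 and Stat2, above 0 with all libraries, had a log2 below 0 without MI 5, and Psmb9 had one above 0.

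The mean over members of log2 CPM centred over the 9 libraries was 0.14, 0.09, 0.02, 0.03 and 0.29 in MI 1 to MI 5, against -0.11, -0.04, -0.22 and -0.19 in Sham 1 to Sham 4. The groups did not overlap on this measure, but the choice of members used the MI against sham differences. Without Ifit1, whose low counts weigh heavily on a log scale, the values were 0.08, 0.03, -0.02, 0.04 and 0.36 in MI 1 to MI 5, against -0.16, -0.01, -0.18 and -0.14 in Sham 1 to Sham 4. MI 3 then lay below Sham 2, and the groups overlapped.

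**Figure D4:**
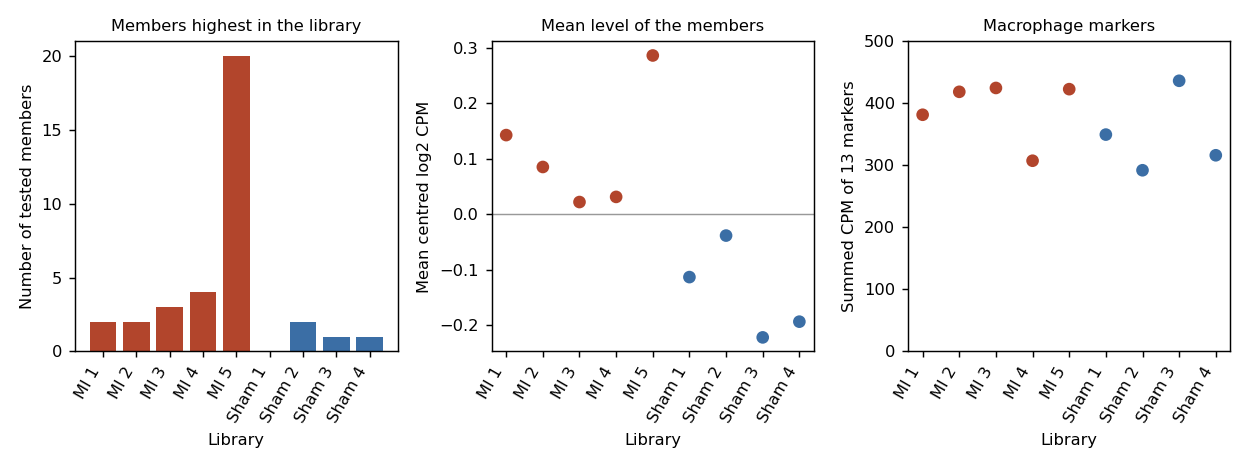
For each library, the number of tested members highest in it (left), the mean over members of centred log2 CPM (middle) and the summed CPM of 13 macrophage markers (right), MI in red and sham in blue. MI 5 holds 20 of the 35 highest values. Its macrophage markers sum to 423 CPM, within the range of the other rats, and 6 of the 13 are highest in it.

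Within groups, the members had a larger spread between rats than the typical gene, and their pairwise correlations were weak. After the group means were taken off, the median SD of log2 CPM was 0.251 over members and 0.137 over all tested genes. The members were also less abundant, with a median level of 15.1 CPM, against 31.5 CPM over all tested genes. The median Pearson correlation over the 9 libraries was 0.163 among the 595 pairs of members and 0.00 among all tested genes. Without MI 5 the median among member pairs was 0.01. All these correlations share the same 9 libraries and are a description without a test.

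The strongest pairs were Bst2 with Ifi35 (r = 0.913), Mx1 with Parp9 (r = 0.908) and Irf7 with Ifit3 (r = 0.849). Mx1 and Tap2 ran in opposite directions (r = -0.951), as did Ifit1 and Ifit2 (r = -0.942) and Oasl and Tap1 (r = -0.939). Irf7 had the highest median correlation with the other members (0.465). The most negative medians were those of Gbp2 (-0.265), Ifit1 (-0.302), Tap2 (-0.369) and Psmb9 (-0.498). Those of Gbp4, Tap1, Ddx58 and Cmpk2 were also below 0, from -0.0221 (Gbp4) to -0.139 (Cmpk2). Thus Gbp2, the member with the lowest p, was not among those that varied with the rest inside the groups. Outside the list, the named genes most like the members' mean over the 9 libraries, group means taken off, were Smarcd1 (r = 0.983), Sema4g (0.933), Phldb1 (0.928), Pank4 (0.925), Il1r1 (0.924), Irf2bpl (0.910), Runx2 (0.908) and Pmepa1 (0.907). None of these 8 was on the lists of interferon pathway genes. Without MI 5 their r ranged from 0.819 (Il1r1) to 0.972 (Smarcd1). They were picked as the highest r among the tested genes in these same libraries, so the values are a description. The members' mean used here held Ifit1, the member with the largest SD within groups (1.74).

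The interferons themselves were at or under the floor. Of 12 listed interferon genes 6 had a row, and these summed to 6 counts over all 9 libraries: 3 for Ifnk and 3 for Ifna2, and those of Ifna2 were all in Sham 3. Ifnb1, Ifng, Ifna1 and Ifna4 had 0 counts in every library, which allows up to 0.530 CPM per library. None was tested. Of 25 tested receptor and signalling genes, 18 were higher and 7 lower in MI, where 50.8% of all tested genes were higher. The median log2 fold change of the 25 was 0.07. None passed, that is 0 by edgeR's likelihood-ratio or quasi-likelihood test. At an unadjusted likelihood-ratio p under 0.05 there were 3, of which 2 were higher in MI, against 2.37% of all tested genes, and 1 was lower, against 2.27%.

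Those 3 were Tlr3, Traf3 and Irf3. Tlr3, the endosomal sensor of double-stranded RNA, averaged 16.8 ± 2.46 CPM in MI rats (SD, n = 5) and 13.1 ± 1.69 CPM in sham rats (SD, n = 4). Irf3, the factor that starts interferon transcription, averaged 68.0 ± 1.56 CPM in MI rats and 61.8 ± 4.66 CPM in sham rats. Traf3, an adaptor that links sensors to the kinases of that factor, averaged 80.9 ± 1.95 CPM in MI rats and 89.0 ± 2.33 CPM in sham rats, with all MI rats below all sham rats, as in 0.905% of all tested genes (log2 -0.14, SE 0.02, adjusted p = 0.903, edgeR likelihood-ratio test). Named after their values were seen, Ifnar1 (log2 -0.01), Ifngr1 (log2 -0.02) and Jak1 (log2 0.00) were nearly equal in the groups.

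Interferon-induced genes outside the 40 members were listed with earlier results of these data known, so nothing is read from their shares. Of 50 tested, 36 were higher and 14 lower in MI, where 50.8% of all tested genes were higher. MI 5 was highest in 18 of the 50, and their count without it was not taken. The median log2 fold change over the 50 was 0.11. By either edgeR test 0 passed. At an unadjusted likelihood-ratio p under 0.05, 5 were higher in MI, against 2.37% of all tested genes, and 1 was lower (Cd47, log2 -0.18), against 2.27%. Eif2ak2 (PKR, the kinase that halts translation on sensing double-stranded RNA) had 53.4 ± 1.66 CPM in MI rats (SD, n = 5) and 44.8 ± 5.08 CPM in sham rats (SD, n = 4), with a log2 of 0.25 (SE 0.07). Every MI rat lay above every sham rat, as in 0.837% of all tested genes, with 50.58 CPM in the lowest MI rat and 50.57 CPM in the highest sham rat. Uba7, the enzyme that activates Isg15 for transfer, had 6.87 ± 1.01 CPM in MI rats and 4.75 ± 1.64 CPM in sham rats (log2 0.53, SE 0.21), with overlap. Lap3, an aminopeptidase, had a log2 of 0.14. Of 9 tested negative regulators 5 were higher and 4 lower in MI, where 50.8% of all tested genes were higher. The median log2 fold change of the 9 was 0.03. By either edgeR test 0 of them passed, also at an unadjusted p under 0.05. The phosphatases Ptpn6 and Ptpn2 had a log2 of 0.23 each, and Samhd1, which depletes nucleotides, had 0.18.

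Markers of other cell types were summed per library beside the members. Macrophage markers, 13 of 13 tested, were higher in MI in 11, against 50.8% of all tested genes. Their median log2 was 0.18 and 0 passed. The highest library was MI 5 for 6 of the 13. Their summed level was 308 to 425 CPM in MI rats and 292 to 436 CPM in sham rats, so the groups overlapped. Sham 3, the lowest library on the members' mean, had the highest sum. Of that sum 65.4 CPM were Ptprc, which had 27.0 to 49.4 CPM in MI rats, so the rank of Sham 3 leans on this marker. Siglec1, a macrophage receptor that interferon also induces, had 5.18 ± 1.44 CPM in MI rats (SD, n = 5) and 3.32 ± 0.657 CPM in sham rats (SD, n = 4). T and NK cell markers summed to 33.4 ± 6.19 CPM in MI rats and 29.8 ± 8.15 CPM in sham rats, with 1 of 10 (Klrb1) at 0. Most of each sum was Cd4, with 24.5 CPM in MI rats and 19.7 CPM in sham rats. The sums thus mainly follow Cd4 and are no level of T cells. Cd8a, the next most abundant, had 2.27 CPM in MI rats and 2.51 CPM in sham rats, and the rest went in both directions. Among the rest, Cd3e, Cd3d and Cd3g averaged 1.23, 0.608 and 1.34 CPM in MI rats and 2.11, 0.806 and 1.32 CPM in sham rats. B and plasma cell markers summed to 5.00 to 16.1 CPM in MI rats, highest in MI 5, and 5.22 to 10.9 CPM in sham rats. The groups overlapped in both lymphocyte lists. Neutrophil markers summed to 52.2 to 142 CPM in MI rats, highest in MI 1, and 53.0 to 88.5 CPM in sham rats. Dendritic cell markers summed to 61.1 to 74.8 CPM in MI rats and 57.2 to 70.2 CPM in sham rats. Nearly all of that was Flt3 (46.7 CPM in MI rats, 43.2 CPM in sham rats) and Tcf4 (21.1 CPM in MI rats, 18.5 CPM in sham rats). Xcr1, Clec9a and Batf3 averaged 0.276, 0.692 and 0 CPM in MI rats and 0.208, 0.648 and 0.0841 CPM in sham rats. Endothelial markers summed to 209 to 314 CPM in MI rats and 208 to 289 CPM in sham rats. These 3 lists overlapped between groups as well. Sensory neuron markers were higher in MI in 1 of 7 and glial markers in 1 of 6, against 50.8% of all tested genes. The glial markers summed to 8760 CPM in MI 5, above every other rat, to 5424 to 6448 CPM in the other MI rats and to 6372 to 7973 CPM in sham rats, with 1 of the 6 highest in MI 5. The part of these cell types in the members' values was not tested.

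The authors' deposited table of their own test, which used the likelihood-ratio test named for the series, held 8000 genes and ended at a p of 0.712. It listed 30 members, and all 30 had a fold change of MI over sham above 1, against 49.8% of its rows. Psmb9, Oasl and Ifih1, the members lower in MI here, were not in it. An adjusted p under 0.05 stood beside 4 members in the authors' deposited table, and beside 0.75% of its rows. These were Ifit1 (3.57-fold, 2.64e-04), Gbp2 (1.37-fold, 0.00307), Irf7 (1.60-fold, 0.00349) and Mx2 (1.27-fold, 0.0481), with the fold and adjusted p of the authors' deposited table. With 1 common dispersion for all genes the counts gave 5 members past the threshold (Gbp2, Ifit1, Irf7, Mx2 and Usp18), against 0.598% of all tested genes, and with a dispersion of its own for each gene 0. The fitted log2 fold changes were 1.84 for Ifit1, 0.68 for Irf7 and 0.46 for Gbp2 with the common dispersion, against 1.78 for Ifit1, 0.67 for Irf7 and 0.46 for Gbp2 with tagwise dispersions, so the dispersion changed the calls and hardly the fold changes.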

How the data were processed

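The authors' deposited counts are whole reads per gene, rounded from deposited expected counts that need not be whole, per the file headers. RPKM values were computed by the authors. The deposited alignment summary holds the percent of reads between genes, and the sheet of RNA samples, also deposited, holds an integrity score. The authors' table gives a linear fold ratio and p-values from edgeR with TMM scaling, per the file headers and the series' design text. Demultiplexing used bcl2fastq 2.16.0.10, per the submitters' processing notes. Reads were then trimmed by cutadapt and mapped by STAR to rn6, per the design text. How strand entered the counting is not stated in the labels or headers, and gene families and overlapping genes may share reads.

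Here the counts of 5 MI and 4 sham libraries were fitted with edgeR 4.0.16 in R 4.3.3: filterByExpr, TMM scaling, tagwise dispersions, a likelihood-ratio test and Benjamini-Hochberg adjustment over 11711 genes with a threshold of 0.05. Levels are CPM scaled by TMM. A printed SE belongs to the difference of group means of log2 CPM (prior count 2) and is not that of the edgeR coefficient. Intervals and floors cover counting error only. The fit was tested on simulated data. Alternatives used the quasi-likelihood test, DESeq2 1.42.0, limma 3.58.1, other scalings, filters and units, a block for the replicate number, and leaving out each library in turn. The correlations without MI 5 and the mean without Ifit1 were added after seeing the data.

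The members and lists were chosen with earlier results of these data known. Named with every library's value were the 12 tested members with the smallest unadjusted p and the member with the highest RPKM of each role. From each wider list up to 3 genes with the smallest p were named. All 40 members matched RefSeq (GRCr8), which was used only for neighbours since the files use rn6. Promoter motifs were not analysed here. Some items are not reported here.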

Additional observations from a re-analysis of the deposited data

Results flagged for a closer look

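Of 40 groups examined (19 named members and the members' mean, each in MI and in sham), 5 held a rat far from the others of its group, where chance gives about 2. Rtp4 had 13.5 CPM in MI 5, against 4.83 to 6.6 CPM in the other MI rats. Stat2 had 63.2 CPM in MI 2, against 85.0 to 90.1 CPM in the other MI rats. Tap2 had 15.7 CPM in Sham 2, against 19.1 to 19.8 CPM in the other sham rats. Ifit1 had 3.38 CPM in Sham 1, against 0 to 0.316 CPM in the other sham rats. Isg15 had 5.22 CPM in Sham 2, against 3.03 to 3.38 CPM in the other sham rats.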

How the results depend on the processing

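Over 22 alternatives, 19 named members gave 415 log2 fold changes, of which 407 kept their direction. The 8 that reversed were Stat2 with the replicate block (-0.00464) and without MI 1 (-0.0143), MI 5 (-0.00259) or Sham 4 (-0.066), and Ifih1 without MI 1 (0.0432), MI 2 (0.00262), MI 4 (0.0446) or Sham 4 (0.105). Without 1 library, Ifih1 ranged from -0.117 to 0.105 and Stat2 from -0.066 to 0.101. The cause was not tested. The count of members past the threshold, 0 as reported, was 5 with 1 common dispersion, 2 with the replicate block (Gbp2 and Ifit1), and 1, Gbp2, with upper-quartile size factors, with library size alone and with no filter on low counts. It was 0 to 1 when 1 library was left out, the 1 being Gbp2 without MI 1 or MI 5. Over all genes 2 passed as reported, 70 with 1 common dispersion, 12 with the replicate block, 0 with the quasi-likelihood test, 0 with limma-voom and 2 with DESeq2. Over all tested genes, rats with the same number did not deviate together (correlations of -0.132, -0.137, 0.0363 and 0.0916 for numbers 1 to 4). These correlations cannot exclude a pairing or batch that touches only some genes. The number of members higher in MI stayed between 29 and 34 and their median log2 between 0.129 and 0.273 over all alternatives, and 0 wider pathway genes passed in any. The log2 of Ifit1 ranged from 0.569 with log2(RPKM + 1) to 4.23 without Sham 1, and it was not tested in 3 alternatives. Depth limits the low members: Usp18 had 9 counts in its lowest library and Ifit1 had 0.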
